A study of Arabidopsis thaliana with 12 samples.

Results

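Among 32833 loci measured in Arabidopsis thaliana seeds, 8 genes for beta-glucosidases were examined: BGLU18 (AT1G52400), BGLU19 (AT3G21370), BGLU21 (AT1G66270), BGLU22 (AT1G66280), BGLU23 (AT3G09260, also called PYK10), BGLU25 (AT3G03640), BGLU30 (AT3G60140, also called DIN2) and BGLU33 (AT2G32860). They were chosen by the measured levels of BGLU30, which responded in opposite directions to stratification in the 2 genotypes, and the other 7 as members of its enzyme family. The response of BGLU30 therefore chose the set, and its values are given as a description, with no test. For all 8 genes the responses to stratification are described without a test, and for the 7 genes other than BGLU30 the difference between genotypes was tested where a gene had at least 1 RPKM in at least 3 libraries, which 4 of the 8 had.

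Messenger RNA came from Col-0 seeds, either wild type or labelled atalkbh1a/1b (called mutant-labelled here). Each genotype was sampled as dry seed at 0 days and as seed held in water at 4 °C for 2 days, the cold treatment called stratification, with 3 libraries in each of the 4 groups. The labels name neither the alleles of the mutant nor the plants or seed lots behind the replicates, so p-values measure the spread between these libraries, which may be technical. Warm imbibed seeds were not among the groups, so cold, water uptake and time cannot be told apart. The libraries were made from whole seeds, in which fewer cells of a type and less RNA per cell cannot be told apart.

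Values are RPKM, the reads of a locus divided by transcript length and library size, and the libraries held 17.76 to 23.04 M reads. The locus AT5G01780, annotated as a 2-oxoglutarate-dependent dioxygenase, separated the genotypes: wild-type means were 4.65 ± 0.412 (SD, n = 3) RPKM dry and 5.86 ± 1.35 stratified, and mutant-labelled means 0.226 ± 0.0548 and 0.391 ± 0.137. AT1G11780, of the same superfamily, was detected in every library of both genotypes. Its dry means were 4.50 ± 0.0656 RPKM in wild-type and 5.55 ± 1.11 in mutant-labelled seeds, and its stratified means 12.96 ± 2.07 and 10.5 ± 4.04. Neither AT5G01780 nor AT1G11780 carries a gene symbol in the table or the annotation. The labels do not say which loci atalkbh1a/1b names, so these levels do not establish that the labelled genes were altered. Also checked were AT3G14160, at 4.89 to 11.4 RPKM over the 12 libraries, and AT3G14140, at no more than 0.131 RPKM in any. Nuclear ribosomal RNA took a share of the summed RPKM of 14.1% for wild-type stratified library 3, of 14.4% and 35.9% for libraries 1 and 3 of the stratified mutant-labelled seeds, of 10.6% for mutant-labelled dry library 2, and 2.56% to 5.88% in the others. Wild-type stratified library 3 stood apart from the other 2 of its group across much of the transcriptome. Of 2704 genes whose log2 means differed by at least 1 between those 2 libraries and the stratified mutant-labelled ones, library 3 lay nearer to the mutant-labelled mean for 2623 (97.0%), and over all 15145 genes fitted for 79.3%. At AT5G01780 it held 4.29 RPKM, as the wild type did. Values without it are given for the 4 members fitted and where the stratification call of a named gene changed. It was singled out after its values were seen, and for most of these genes leaving it out moves the wild-type mean away from the mutant-labelled one. Genotype differences without it are therefore descriptive. It is also the only wild-type stratified library above 10% ribosomal RNA, so splits by ribosomal RNA are not separate from leaving it out. The 4 seed identity markers were present in every library, their summed level running from 68326 to 70734 RPKM in dry and from 4167 to 19521 in stratified wild-type seeds, and from 47243 to 66658 and from 6336 to 18057 in mutant-labelled seeds. For 6 endosperm markers, of which 1 was at 0 in every library, the sum ran from 1862 to 2749 RPKM in dry wild-type seeds. It ran from 345 to 1288 in stratified wild-type seeds, and from 1685 to 2371 and from 456 to 716 in mutant-labelled seeds. EPR1 made up most of this sum, with wild-type means of 2242 RPKM dry and 686.4 stratified, whereas those of MAN7 were 1.008 and 16.95. Of the 5 endosperm markers tested by limma, 3 were called higher and 1 lower after stratification in each genotype. Among all genes these shares were 49.8% higher and 18.9% lower in the wild type, and 43.4% and 15.2% in mutant-labelled seeds. For 6 markers of photosynthetic seedling tissue the sum ran from 25.6 to 26.9 RPKM in dry wild-type seeds. In stratified ones it ran from 84.1 to 402.5 RPKM. In mutant-labelled seeds it ran from 12.7 to 17.1 RPKM dry and from 48.005 to 102 stratified. RBCS1A made up most of this sum, with wild-type means of 17.5 RPKM dry and 226.8 stratified, whereas those of PSAD2 were 7.38 and 1.86. Of the 5 tested by limma, 3 were called higher and 1 lower in the wild type. In mutant-labelled seeds 3 were called higher and 0 lower, beside the same shares of all genes. The 6 seed coat markers summed to at most 3.94 RPKM in any library. The part of tissue makeup and of ribosomal RNA in the results below was not tested.

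Beta-glucosidases of glycoside hydrolase family 1 cut the bond between glucose and another molecule. Plants store hormones, defence compounds and phenolics as inactive glucosides, and these enzymes release the active part when cells are damaged, starved or need the hormone. BGLU18, in the endoplasmic reticulum, and BGLU33, in the vacuole, release abscisic acid, the hormone of seed dormancy, from its glucose ester. BGLU21, BGLU22 and BGLU23 belong to the enzymes of endoplasmic reticulum bodies (ER bodies), spindle-shaped stores of seedlings and roots, and hydrolyse coumarin glucosides such as scopolin. BGLU30 is a dark-inducible gene whose transcript is known to accumulate in leaves in darkness, in sugar starvation and in senescence, and with its relative BGLU28 it is linked to the breakdown of glucosinolates, sulfur-rich defence compounds, when sulfur is short.

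The 4 genes that passed this filter lie on chromosome 3, and the 250 bases before their annotated starts are shown because these genes differed in how their transcripts changed. The coordinates are those of TAIR10, and each sequence is written 5′ to 3′ on the strand of its gene. Capitals mark matches, on either strand, to 4 short motifs: ACGTG, the core of abscisic acid response elements; CATGCA, the core of the RY element of seed-maturation genes; TATCCA, a sugar-starvation element known from rice; and GAGAC, the core of a sulfur-response element.
BGLU30 (chr3:22216290-22216539, plus strand): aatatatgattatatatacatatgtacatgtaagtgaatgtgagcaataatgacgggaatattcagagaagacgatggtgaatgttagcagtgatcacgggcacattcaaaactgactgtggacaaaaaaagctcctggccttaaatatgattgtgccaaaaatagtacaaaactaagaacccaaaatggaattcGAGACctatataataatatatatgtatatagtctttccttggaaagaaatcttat
BGLU19 (chr3:7527678-7527927, minus strand): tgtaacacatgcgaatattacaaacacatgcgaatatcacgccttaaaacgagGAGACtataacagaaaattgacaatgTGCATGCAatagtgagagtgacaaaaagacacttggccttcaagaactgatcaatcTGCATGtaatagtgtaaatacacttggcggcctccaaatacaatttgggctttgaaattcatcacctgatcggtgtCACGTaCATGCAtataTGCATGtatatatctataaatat
BGLU25 (chr3:880738-880987, plus strand): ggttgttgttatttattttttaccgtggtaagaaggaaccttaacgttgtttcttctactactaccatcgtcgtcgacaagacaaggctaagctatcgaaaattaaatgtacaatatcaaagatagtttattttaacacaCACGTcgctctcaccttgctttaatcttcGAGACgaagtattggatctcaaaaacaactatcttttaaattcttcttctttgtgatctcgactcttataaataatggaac
BGLU23 (chr3:2843782-2844031, minus strand): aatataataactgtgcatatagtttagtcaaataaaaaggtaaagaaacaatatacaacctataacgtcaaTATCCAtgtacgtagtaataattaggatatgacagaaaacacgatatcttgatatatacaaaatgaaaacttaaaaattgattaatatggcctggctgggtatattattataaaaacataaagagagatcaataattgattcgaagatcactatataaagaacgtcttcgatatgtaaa

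The window of BGLU30 held 1 GAGAC, with its first base at -55 from the annotated start, and none of the other motifs. That of BGLU19 held CATGCA 5 times, at -171, -169, -115, -33 and -23, of which the first 2 overlap, with ACGTG at -39 and GAGAC at -197. The window of BGLU25 held ACGTG at -110 and GAGAC at -81, and that of BGLU23 held TATCCA at -179. BGLU21 had TATCCA at -99, and the windows of BGLU18, BGLU22 and BGLU33 held none of the 4. Among 27443 upstream windows of the same length, 22.9% held ACGTG, 8.43% CATGCA, 13.6% TATCCA and 25.8% GAGAC, so a single GAGAC or ACGTG is a common feature. These matches are letters in a window and not binding sites, and the window of BGLU19 also covers a short unnamed locus, AT3G21371, that starts 26 bases from it.

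BGLU30, the dark-inducible member, lay near 13 RPKM in dry seeds of both genotypes and was lower after stratification in the wild type but higher in mutant-labelled seeds. In wild-type dry libraries 1, 2 and 3 it stood at 13.3, 13.4 and 14.2 RPKM, and in the stratified ones at 3.41, 0.700 and 4.62 RPKM. In mutant-labelled dry libraries it stood at 14.4, 9.96 and 12.6 RPKM, and in the stratified ones at 25.3, 38.98 and 21.6 RPKM. Every stratified wild-type library lay below every dry one, every stratified mutant-labelled library lay above every dry one, the dry libraries of the genotypes overlapped, and the stratified ones did not, which was so, with the mutant-labelled side higher, for 1.43% of all genes.

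The means were 13.6 ± 0.497 (SD, n = 3) RPKM dry and 2.91 ± 2.01 stratified in the wild type, and 12.3 ± 2.22 and 28.6 ± 9.16 in mutant-labelled seeds. After stratification the mutant-labelled mean was 9.84 times that of the wild type, against 0.905 times in dry seeds. On the log2(RPKM + 1) scale, on which all log2 changes below are given, the change with stratification was -2.07 ± 0.36 (SE) in the wild type and 1.12 ± 0.36 in mutant-labelled seeds, a difference of 3.19 ± 0.51. The median change of all 15145 genes fitted was 0.64 in the wild type and 0.50 in mutant-labelled seeds, which leaves BGLU30 2.71 below and 0.62 above them. These values rest on 35 to 1983 reads per library, the fewest in wild-type stratified library 2.

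**Figure D1:**
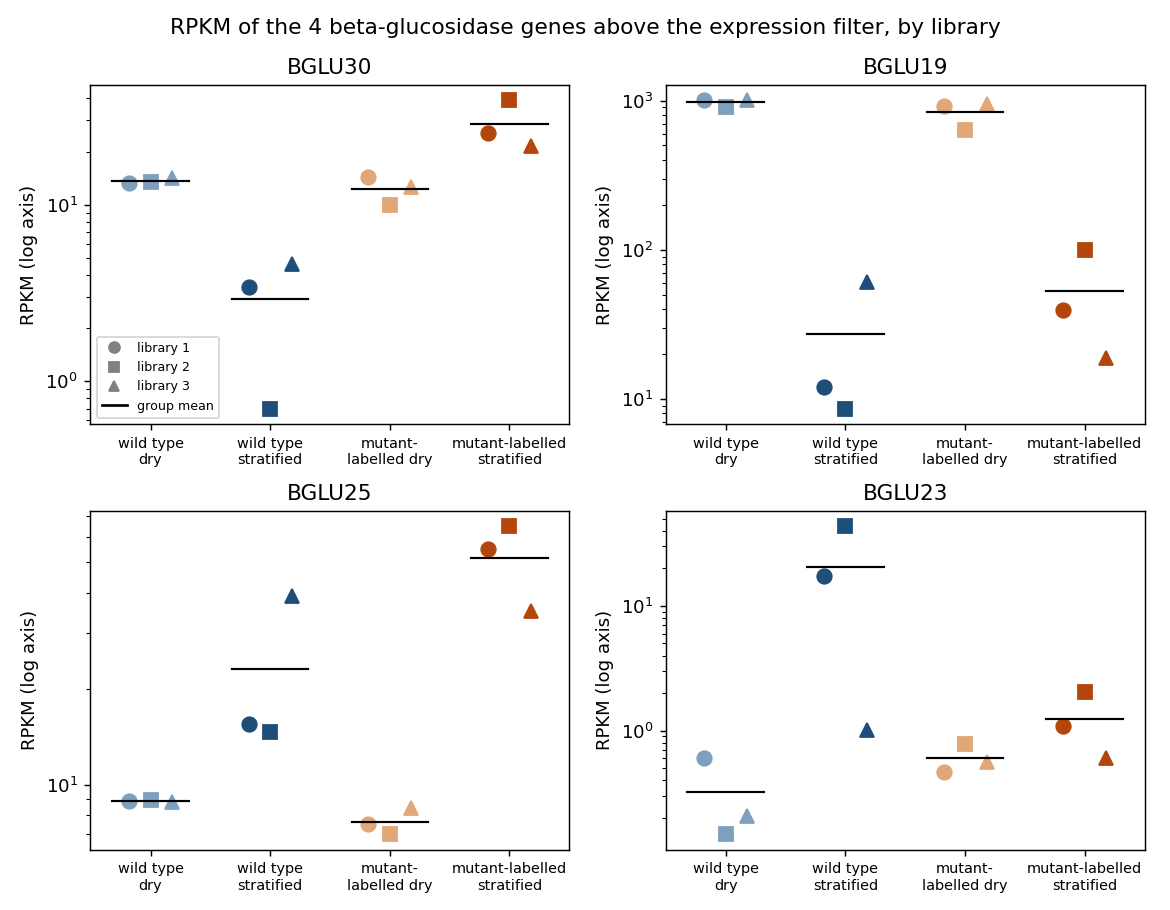
Level of the measured members in each of the 12 libraries, in RPKM on a log axis that differs between panels, by group; points are libraries and horizontal lines group means. BGLU30 ran from 0.700 to 4.62 RPKM in stratified wild-type seeds and from 21.6 to 38.98 RPKM in stratified mutant-labelled seeds, while BGLU19 was lower after stratification in both genotypes.

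A response without overlap between libraries in either genotype was common in one direction at a time: 24.0% of all genes were lower without overlap after stratification in the wild type, and 44.8% were higher without overlap in mutant-labelled seeds. Both together, as in BGLU30, occurred in 7 genes (0.0462%), and the opposite combination in 0. BGLU30 was the 1 gene (0.0066%) of these with a log2 change of at least 1 each way. Since it was chosen for this pattern, the counts only describe how it was picked.

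The direction of both responses was the same in all alternatives run, with log2 changes from -2.65 to -1.38 in the wild type and from 0.65 to 1.60 in mutant-labelled seeds. Without wild-type stratified library 3 the wild-type change was -2.42 ± 0.33 and the difference between genotypes in stratified seeds was 3.39 ± 0.33, against 3.05 ± 0.36 with it. Among stratified libraries above 10% ribosomal RNA, the only wild-type one, library 3, held 4.62 RPKM. The mutant-labelled ones had a mean of 23.5 RPKM, 5.07 times as much. Among those at or under 10%, the wild-type mean was 2.06 RPKM and the mutant-labelled library held 38.98 RPKM, 18.97 times as much.

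**Figure D2:**
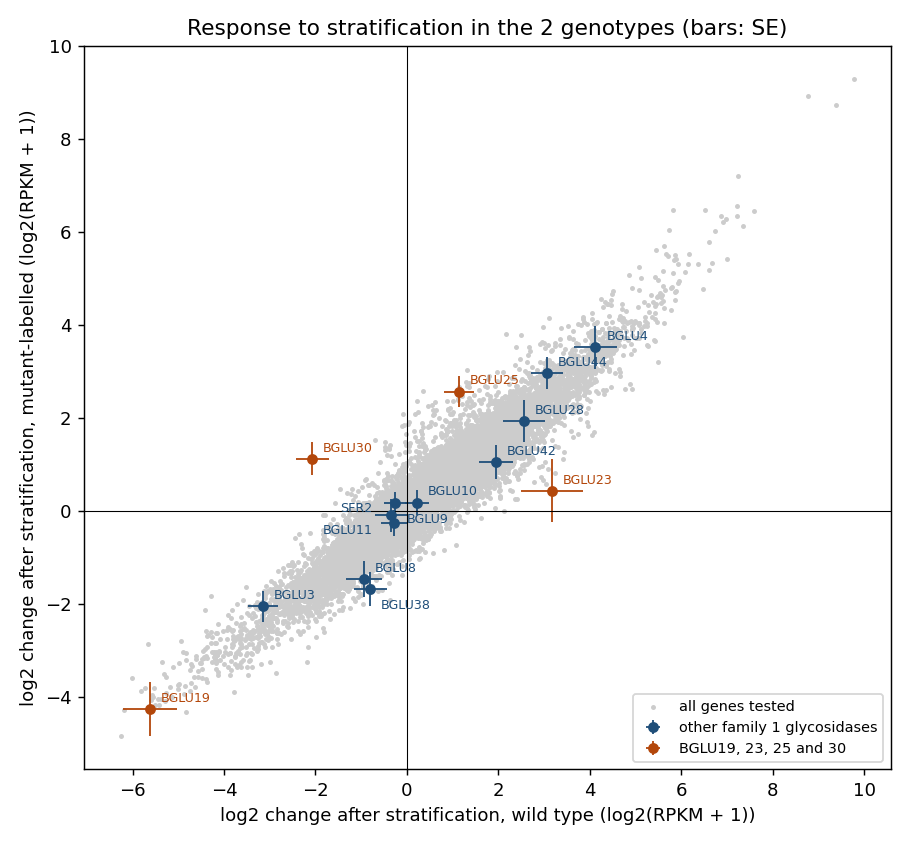
Log2 change after stratification, on the log2(RPKM + 1) scale, in the wild type (horizontal) and in mutant-labelled seeds (vertical); grey points are all 15145 genes tested, orange points the 4 members fitted, blue points the 11 other family genes, and bars standard errors. BGLU30 lies at -2.07 and 1.12, and BGLU23 at 3.18 and 0.44.

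BGLU30 lies at chr3:22216540-22220824 on the plus strand and has 12 coding exons. The locus before it, 2657 bases away, is the family gene BGLU16, at 0.06 to 0.38 RPKM. The locus after it, AT3G60150, annotated as an assembly factor-like protein of the mitochondrial NADH dehydrogenase, starts 1147 bases beyond. AT3G60150 had a dry level close to that of BGLU30, 13.3 ± 0.114 RPKM in wild-type and 14.3 ± 3.47 in mutant-labelled seeds, and stood at 2.24 ± 1.04 and 1.99 ± 1.05 RPKM after stratification. It fell in both genotypes, by 2.19 ± 0.30 in the wild type (limma, adjusted p = 6.08e-06) and by 2.38 ± 0.30 in mutant-labelled seeds (adjusted p = 4.6e-06), and the genotypes did not differ in its response beyond the spread (interaction adjusted p = 0.91). The lower level after stratification was thus shared by BGLU30 and this neighbour in the wild type, and the higher level in mutant-labelled seeds was not seen in the neighbour.

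The 5 genes whose log2 level over the 12 libraries was most like that of BGLU30 were BRR2B, with Pearson r = 0.92, SRO5 with 0.89, AT5G52530 with 0.88, and FAB1D and DTX14 with 0.87 each. These r describe 12 libraries that share groups and depth. The genes differed from BGLU30 in size of change: BRR2B, a homologue of a spliceosome RNA helicase, ran from 1.25 to 2.16 RPKM in stratified wild-type and from 3.48 to 6.16 RPKM in stratified mutant-labelled libraries. DTX14 ran from 6.41 to 18.8 and from 16.1 to 30.3 RPKM in the same groups, which overlap.

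BGLU19 was by far the most abundant beta-glucosidase transcript of dry seeds and was lower after stratification in both genotypes. It stood at 1004, 910 and 1002 RPKM in wild-type dry libraries and at 11.9, 8.59 and 61.2 RPKM in stratified ones. In mutant-labelled seeds it stood at 926, 631 and 949 RPKM dry and at 39.2, 100.04 and 18.7 RPKM stratified. Dry and stratified libraries did not overlap in either genotype, and the genotypes overlapped in both states. Of all genes, 24.0% were lower without overlap after stratification in the wild type and 15.2% in mutant-labelled seeds.

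The mean of BGLU19 was 972 ± 53.6 (SD, n = 3) RPKM dry and 27.2 ± 29.4 stratified in the wild type, a ratio of 35.7, and 836 ± 178 and 52.6 ± 42.3 in mutant-labelled seeds, a ratio of 15.9. Its log2 change was -5.62 ± 0.59 in the wild type (-6.45 ± 0.41 if library 3 of the stratified seeds is left out) and -4.26 ± 0.59 in mutant-labelled seeds. In dry seeds the difference between genotypes, -0.24 ± 0.59, was within the spread (limma, adjusted p = 1). In stratified seeds it was 1.12 ± 0.59 (adjusted p = 0.308), and 1.95 ± 0.41 without wild-type stratified library 3. Within libraries above 10% ribosomal RNA the order turned round, with 61.2 RPKM in wild-type library 3 and a mean of 28.9 RPKM in mutant-labelled seeds. The wild-type side of this split is that same library alone.

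The 5 genes most like BGLU19 over the 12 libraries had r from 0.9986 to 0.9993: PXG2, AT1G15740, RAB18, MSD2 and SSL9. RAB18 is a dehydrin, a desiccation protein induced by abscisic acid, and ran from 31497 to 33606 RPKM in wild-type dry and from 569 to 2861 RPKM in stratified libraries. JAL36, a jacalin-related lectin gene that starts 503 bases beyond the start of BGLU19 and was singled out after its values were seen, had wild-type means of 562 ± 23.4 RPKM dry and 7.45 ± 5.57 stratified, and mutant-labelled means of 484 ± 87.5 and 19.5 ± 15.5. At the other end BGLU19 overlaps AT3G21360 on the opposite strand by 527 bases. No source used here says whether counting used strand, so reads of the overlap cannot be told apart, but AT3G21360 stood at no more than 10.8 RPKM in any group mean.

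BGLU25 was a minor transcript of dry seeds and was higher after stratification in both genotypes. In the wild type it stood at 8.91, 8.97 and 8.81 RPKM dry and at 15.5, 14.6 and 39.3 RPKM stratified. In mutant-labelled seeds it stood at 7.50, 6.98 and 8.44 RPKM dry and at 55.0, 65.0 and 35.2 RPKM stratified. Every stratified library lay above every dry one of its genotype, as for 55.0% of all genes in the wild type and 44.8% in mutant-labelled seeds. In stratified seeds wild-type library 3, at 39.3 RPKM, lay within the mutant-labelled values.

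The log2 change of BGLU25 was 1.14 ± 0.33 in the wild type, 0.50 above the median of all genes, and 2.57 ± 0.33 in mutant-labelled seeds, 2.06 above it. Without wild-type stratified library 3 the wild-type change was 0.70 ± 0.31, where the median of all genes was 0.74. Mutant-labelled dry libraries lay below all wild-type ones, as did 21.3% of all genes, and the difference of -0.20 ± 0.33 was within the spread of the fit (limma, adjusted p = 1). In stratified seeds the mutant-labelled mean was 51.8 ± 15.2 against 23.1 ± 14.0 RPKM, a log2 difference of 1.23 ± 0.33 that did not pass (adjusted p = 0.134). Without wild-type stratified library 3 the difference was 1.67 ± 0.31. Among stratified libraries above 10% ribosomal RNA, that library held 39.3 RPKM and the mutant-labelled mean was 45.1 RPKM, 1.15 times as much. Among those at or under 10%, the mutant-labelled library held 65.0 RPKM, 4.31 times the wild-type mean of 15.1 RPKM. The neighbour CS26, a gene of the cysteine synthase family 526 bases from BGLU25, rose in both genotypes, by 2.03 ± 0.45 in the wild type (adjusted p = 0.00074) and 1.19 ± 0.45 in mutant-labelled seeds (adjusted p = 0.031), the latter lost under median centring (adjusted p = 0.0969) and without mutant-labelled stratified library 2 (adjusted p = 0.155) or dry library 2 (adjusted p = 0.112), among others. BGLU25 overlaps EDA5 on the opposite strand by 25 bases.

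Of the ER body enzymes, BGLU23 was near the limit of detection in dry seeds and reached high levels in 2 of 12 libraries. It stood at 0.604, 0.147 and 0.208 RPKM in wild-type dry libraries and at 17.4, 43.6 and 1.008 RPKM in stratified ones. In mutant-labelled seeds it stood at 0.468, 0.788 and 0.564 RPKM dry and at 1.09, 2.03 and 0.602 RPKM stratified. Wild-type stratified libraries 1 and 2, with 726 and 1685 reads, were far above all others, and library 3, with 41 reads, lay among the mutant-labelled values.

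The log2 change of BGLU23 was 3.18 ± 0.68 in the wild type and 0.44 ± 0.68 in mutant-labelled seeds, the latter 0.07 below the median of all genes. Without wild-type stratified library 3 the wild-type change was 4.46 ± 0.29. In dry seeds the genotypes differed by 0.29 ± 0.68 (limma, adjusted p = 1). In stratified seeds the difference was -2.45 ± 0.68, and -3.73 ± 0.29 without that library. BGLU23 reached 1 RPKM in no dry library and in only 2 mutant-labelled ones, so it passed the filter on low values only through the stratified wild-type group where it is high, and no test of this difference is given. Within libraries above 10% ribosomal RNA the mutant-labelled mean was 0.840 times the value of wild-type library 3, the only wild-type one there. Within those at or under 10% the mutant-labelled value was 0.0664 times the wild-type mean.

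BGLU21 followed the same libraries at a much lower level. It was at 0 in all 6 dry libraries, at 23, 58 and 6 reads (0.503, 1.36 and 0.134 RPKM) in stratified wild-type libraries, and at 2, 0 and 0 reads in mutant-labelled ones. Its wild-type stratified mean of 0.667 RPKM was at least 9.22-fold higher than a floor of 3 reads per library in dry seeds. BGLU22, 3345 bases from BGLU21 on chromosome 1, had at most 2 reads in any library. The coding sequences of BGLU21 and BGLU22 are 93.3% identical, and those of BGLU21 and BGLU23 83.7%, so reads of the low members could be split between copies and their values are uncertain.

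The abscisic acid releasing members were not detected. BGLU18 and BGLU33 were at 0 in all 12 libraries, where 3 reads would have been 0.0558 to 0.0724 RPKM for BGLU18 and 0.0588 to 0.0763 RPKM for BGLU33. These floors cover counting error only.

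Between genotypes in dry seeds, 0 of the 3 members BGLU19, BGLU23 and BGLU25 were called by limma, where 0.0462% of all genes were called, and 0 had an unadjusted p under 0.05, as 1.5% of all genes had. In stratified seeds neither BGLU19 nor BGLU25 was called, where 0.211% of all genes were, and BGLU25 had an unadjusted p of 0.00157, in a contrast in which 18.5% of all genes were under 0.05. Without wild-type stratified library 3 both were called higher in mutant-labelled seeds, but 4505 genes (29.7%) were then called, against 32 with it. These calls are descriptive, since that library was singled out after its values were seen.

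In dry seeds 1 transcript made up most of the family, and after stratification several did. The summed RPKM of its 48 genes was 1208 ± 58.6 (dry) and 331 ± 28.5 (stratified) in the wild type, and 1047 ± 205 and 351 ± 163 in mutant-labelled seeds. BGLU19 made up 77.8% to 81.2% of that sum in dry libraries, 3.98%, 2.55% and 17.2% in stratified wild-type and 11.9%, 19.1% and 9.35% in stratified mutant-labelled libraries. The share of BGLU30 was 1.07% to 1.24% in dry libraries, 1.14%, 0.208% and 1.30% in stratified wild-type and 7.70%, 7.45% and 10.8% in stratified mutant-labelled libraries, so its share was higher in all 3 of the latter than in any other library. BGLU25 took 5.19%, 4.33% and 11.1% in stratified wild-type and 16.7%, 12.4% and 17.6% in stratified mutant-labelled libraries.

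**Figure D3:**
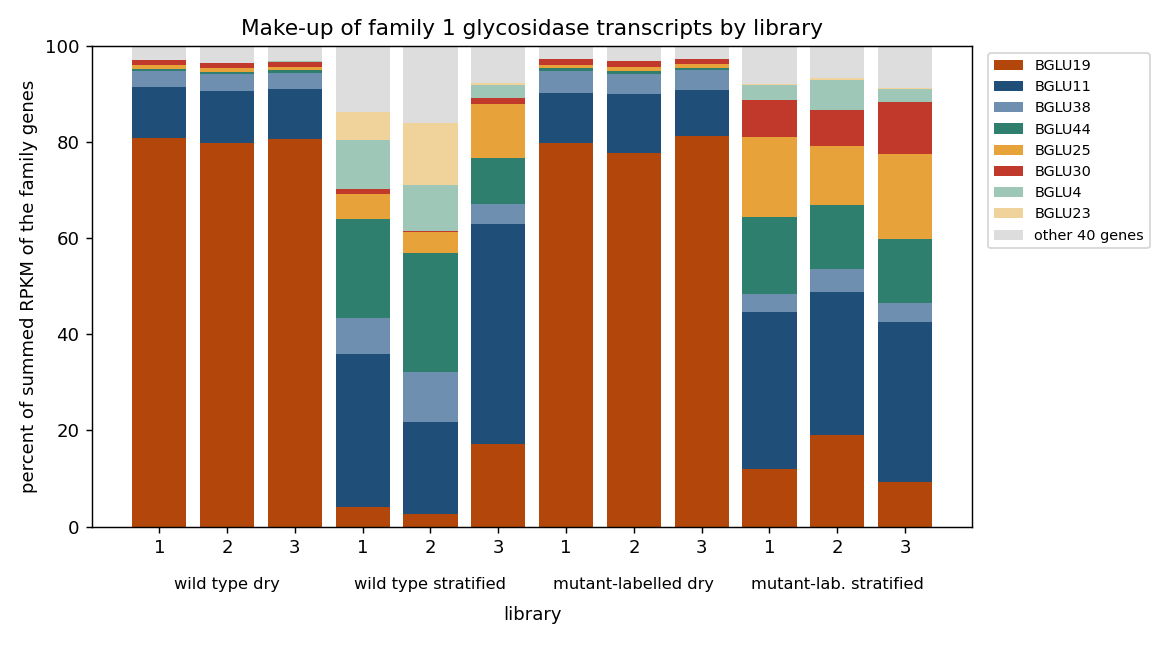
Stacked bars of the share, in percent, of the summed RPKM of the 48 family genes taken by 8 of them and by the other 40 together, 1 bar for each of the 12 libraries. BGLU19 takes 77.8% to 81.2% of each dry library, and BGLU30 7.45% to 10.8% of each stratified mutant-labelled library.

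In order of mean RPKM, dry seeds of both genotypes had BGLU19, BGLU11, BGLU38 and BGLU30. Stratified wild-type seeds had BGLU11, BGLU44 and BGLU19 first, and stratified mutant-labelled seeds BGLU11, BGLU19, BGLU25, BGLU44 and BGLU30. BGLU11 had means of 128 ± 3.78 (dry) and 107.5 ± 49.9 RPKM (stratified) in the wild type and of 111 ± 12.1 and 109.6 ± 44.4 in mutant-labelled seeds, and was not called after stratification in either genotype (limma, adjusted p = 0.399 and 0.828).

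Of the other 40 family genes, 17 were at 0 in every library, 12 were above 0 but too low to fit, and 11 were tested. After stratification 4 were called higher and 2 lower in the wild type, where 68.6% of all genes were called, 49.8% higher and 18.9% lower. In mutant-labelled seeds 4 were called higher and 3 lower, where 58.6% of all genes were, 43.4% higher and 15.2% lower. The median log2 change of the 11 was -0.25 and 0.16, against 0.64 and 0.50 for all genes.

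BGLU28, the closest relative of BGLU30 at 75.2% coding identity, was higher after stratification in both genotypes. It stood at 10.6, 8.89 and 0.833 RPKM in stratified wild-type and 2.42, 3.33 and 3.34 RPKM in stratified mutant-labelled libraries, and at no more than 0.0751 RPKM in any dry one. BGLU28 rose by 2.56 ± 0.45 in the wild type (3.41 ± 0.23 with library 3 left out) and 1.93 ± 0.45 in mutant-labelled seeds. Like BGLU4, it passed the filter only through stratified libraries, where it is high, so its rise is given as a description. BGLU44, which prefers mannosides, rose by 3.06 ± 0.34 and 2.96 ± 0.34, and BGLU4 by 4.12 ± 0.47 and 3.52 ± 0.47. BGLU3 fell by 3.15 ± 0.33 and 2.05 ± 0.33. BGLU38, the myrosinase TGG1 that cuts glucosinolates, fell by 1.67 ± 0.36 in mutant-labelled seeds (limma, adjusted p = 0.000841). It changed by -0.80 ± 0.36 in the wild type (adjusted p = 0.0585). BGLU8 fell by 1.46 ± 0.39 in mutant-labelled seeds and by 0.94 ± 0.39 in the wild type (adjusted p = 0.0392), the latter lost in several alternatives, among them without wild-type stratified library 3 (adjusted p = 0.231).

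None of the 11 was called between genotypes in dry or stratified seeds or in the interaction (0.0264% of all genes) by limma. At an unadjusted p under 0.05 there was 1 of the 11 in each, where 1.5%, 18.5% and 6.99% of all genes were: BGLU3 in dry seeds (-0.84), BGLU42, linked to root responses to iron shortage, in stratified seeds (-0.94), and BGLU3 in the interaction (1.102). Without wild-type stratified library 3, 6 of the 11 were called in stratified seeds and 3 in the interaction, where 29.7% and 15.5% of all genes were. Both counts include BGLU28, and the former also BGLU4. Since these passed the filter only through stratified libraries, and that library was singled out by its values, the counts are descriptive.

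Of the 7 other dark-inducible (DIN) genes, the group after which BGLU30 is also named, 5 were tested. In the wild type 1 was called higher and 2 lower after stratification, and in mutant-labelled seeds 1 higher and 3 lower, beside 68.6% and 58.6% of all genes called in either direction. DIN1, a senescence-associated gene, stood at 46.2 to 49.7 RPKM in dry and 1.21 to 1.44 RPKM in stratified wild-type libraries, and fell by 4.41 ± 0.43 there and 2.98 ± 0.43 in mutant-labelled seeds. DIN6, the asparagine synthetase ASN1, fell by 5.72 ± 0.46 and 3.80 ± 0.46. DIN10, related to raffinose synthases, rose by 4.83 ± 0.48 and 3.68 ± 0.48. All 3 kept one direction in both genotypes, and 0 of the 5 were called in the genotype contrasts or the interaction by limma, with 0, 2 and 2 at an unadjusted p under 0.05 in dry seeds, stratified seeds and the interaction, beside 1.5%, 18.5% and 6.99% of all genes.

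Of 16 genes of the sulfur deficiency response, 13 were tested, with 10 called higher and 1 lower in the wild type and 7 higher and 0 lower in mutant-labelled seeds. Of all genes, 49.8% were called higher and 18.9% lower in the wild type, and 43.4% and 15.2% in mutant-labelled seeds. The median log2 change of the list was 1.63 and 0.91, against 0.64 and 0.50 for all genes. LSU2, of the family induced by low sulfur, stood at 152, 28.7 and 9.93 RPKM in stratified wild-type and 24.6, 89.3 and 14.2 RPKM in stratified mutant-labelled libraries, against 2.15 to 5.21 RPKM in dry ones. It rose by 3.25 ± 0.68 and 2.61 ± 0.68, LSU3 by 3.33 ± 0.61 and 2.21 ± 0.61, and SDI1, a repressor of glucosinolate synthesis, by 2.90 ± 0.70 and 2.87 ± 0.70. The wild-type changes were larger with library 3 left out, 4.13 ± 0.44 for LSU2, 4.26 ± 0.38 for LSU3 and 4.12 ± 0.36 for SDI1. EIL3 (SLIM1), the regulator of this response, fell by 0.82 ± 0.28 in the wild type (adjusted p = 0.0137), which was lost without library 1 (adjusted p = 0.0727) or library 2 (adjusted p = 0.0617) of the stratified wild type. None of the 13 was called between genotypes or in the interaction by limma, with 0 in dry seeds, 2 in stratified seeds and 1 in the interaction at an unadjusted p under 0.05, beside the 1.5%, 18.5% and 6.99% of all genes.

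**Figure D4:**
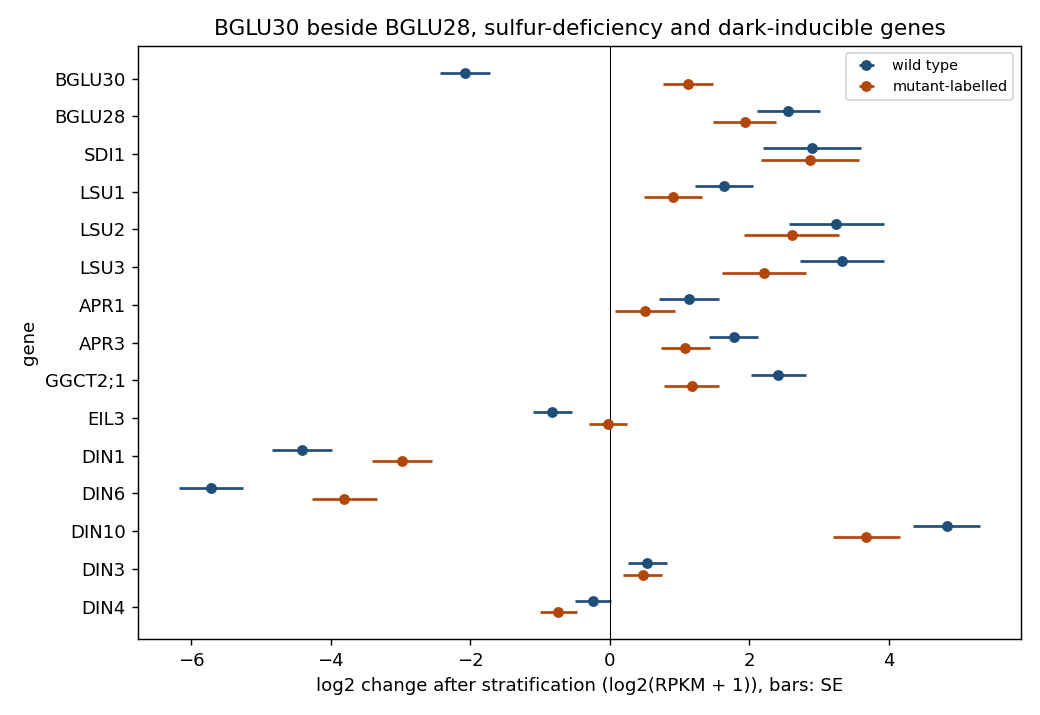
Log2 change after stratification, on the log2(RPKM + 1) scale, of BGLU30, BGLU28, sulfur deficiency genes and dark-inducible genes in the wild type (blue) and mutant-labelled seeds (orange); points are estimates from 3 libraries a group and bars standard errors. BGLU30 lies at -2.07 and 1.12 on opposite sides of 0, while DIN1 and DIN6 lie below 0 and LSU2, LSU3 and DIN10 above it in both genotypes.

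Of 14 genes of ER bodies and the PYK10 complex, which binds BGLU23 when cells break, 3 were tested; all 3 were called higher in the wild type and 2 in mutant-labelled seeds, beside 49.8% and 43.4% of all genes. GLL22 and GLL23, lipase-like proteins of the complex, rose by 4.59 ± 0.36 and 4.39 ± 0.34 in the wild type and by 3.69 ± 0.36 and 4.45 ± 0.34 in mutant-labelled seeds. GLL22 reached 1 RPKM only in stratified libraries, and GLL23 in those and in wild-type dry library 1 (1.002 RPKM). Both thus passed the filter through groups where they are high, so the counts that include them are descriptive. JAL30 (PBP1), the PYK10-binding lectin, had the library pattern of BGLU23, at 9.46, 23.2 and 0.679 RPKM in stratified wild-type and 1.11, 1.52 and 0.271 RPKM in stratified mutant-labelled libraries. It was called higher in the wild type at 1.92 ± 0.60 (limma, adjusted p = 0.00904), lost without stratified library 2 (1.08 ± 0.47, adjusted p = 0.0519), under median centring (adjusted p = 0.0626), with quantile normalization (adjusted p = 0.116) and with the wild-type groups fitted alone (adjusted p = 0.0876). Without stratified library 3 it was 3.002 ± 0.29. NAI1, the transcription factor for ER bodies, and NAI2, an ER body component, were too low to fit. NAI1 stood at 1.63, 2.41 and 0.458 RPKM in stratified wild-type and 0.254, 0.974 and 0.146 RPKM in stratified mutant-labelled libraries. NAI2 stood at 3.52, 7.52 and 0.239 and at 0.286, 0.826 and 0.157 RPKM in the same groups. TSA1, JAL22, JAL23, JAL31, JAL33 and JAL35 of the list stood at no more than 0.0593 RPKM in any library.

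Genes that act on substrates and products of the family were tested in 3 further lists. NSP2, which directs glucosinolate breakdown to nitriles, stood at 997 to 1041 RPKM in wild-type dry seeds and fell by 5.56 ± 0.49 in the wild type and 4.01 ± 0.49 in mutant-labelled seeds, and 2 of 3 tested specifier genes of 7 were called lower and 1 higher in each genotype. NSP5 fell by 0.71 ± 0.25 (adjusted p = 0.0194) and 0.63 ± 0.25 (adjusted p = 0.0409), the former lost without wild-type stratified library 3 (adjusted p = 0.134) and the latter without mutant-labelled dry library 1 (adjusted p = 0.128), among others. Of 5 genes that attach glucose to abscisic acid 3 were tested, and 3 were called lower in the wild type and 1 in mutant-labelled seeds; UGT71B7 fell by 1.66 ± 0.29 and 1.23 ± 0.29, and UGT71C5 by 0.92 ± 0.25 in the wild type, lost without the stratified libraries at or under 10% ribosomal RNA (adjusted p = 0.15). UGT71C5 was not called in mutant-labelled seeds (-0.35 ± 0.25, adjusted p = 0.238). Of 6 genes of coumarin synthesis and phenylpropanoid glucosylation 2 were tested, 1 called higher and 1 lower in each genotype; UGT72E1, which glucosylates monolignol aldehydes, fell by 3.78 ± 0.45 in the wild type and fell by 2.79 ± 0.45 in mutant-labelled seeds. None of these genes was called between genotypes or in the interaction by limma, with 0 in dry seeds at an unadjusted p under 0.05. In stratified seeds 2 of the specifiers, 1 of the abscisic acid genes and 1 of the coumarin list were under 0.05, beside 18.5% of all genes, and in the interaction 1, 1 and 0, beside 6.99%. After stratification 68.6% of all genes were called in the wild type and 58.6% in mutant-labelled seeds.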

How the data were processed

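The authors deposited RPKM values for 32833 loci in 12 libraries. Per the labels' protocols, oligo-dT beads were used to select mRNA and the library kit was directional. STAR, DESeq2 and TAIR10 are listed, without roles, in the submitters' processing notes. The program that counted reads, its strand setting and its handling of reads shared by copies were not given in these sources. Reads of the library and of each gene were recovered from the steps between low values, of which 99.4085% of 56297 were whole within 0.05 reads.

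The tests used limma 3.58.1 (R 4.3.3) on the log2(RPKM + 1) scale computed from the deposited values, with a mean-variance trend, 4 group means over all 12 libraries and 8 residual degrees of freedom. They covered the 15145 genes that reached 1 RPKM in 3 libraries or more. BGLU4, BGLU28, DIN10, GLL22, LSU1, GGCT2;1 and SULTR4;1, among others, reached 1 RPKM only in stratified libraries. Such genes entered the tests only through the groups where they are high. Counts that include them are descriptive, whether called higher after stratification, between genotypes in stratified seeds or in the interaction. GLL23 is close to this, since its only dry value of at least 1 RPKM was 1.002 in wild-type dry library 1. The pseudocount of 1 understates the changes of low genes. Tests were 2-sided, with Benjamini-Hochberg adjustment over all genes and a threshold of 0.05. The fit was tested on simulated data. The members and gene lists were chosen with earlier results of these data known. Named were the members, up to 3 called genes per list, contrast and direction with at least 5 RPKM in the higher group, adjacent loci, and the 5 genes most like BGLU30 and BGLU19; 2 list entries whose locus carries another name were dropped. BGLU11, BGLU42, NAI1, NAI2 and JAL36 fall outside that rule and were picked after their values were seen. Names, positions and sequences are from the TAIR10.1 assembly and RefSeq annotation, whose nuclear chromosomes equal those of TAIR10. The alternatives tried are given at the end.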

Additional observations from a re-analysis of the deposited data

Results flagged for a closer look

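BGLU30 was singled out because its response to stratification differed between genotypes in sign: every stratified wild-type library lay below the dry ones and every stratified mutant-labelled library above them, and the log2 responses differed by 3.19. The difference was not tested here, because the gene was chosen for it.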

How the results depend on the processing

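The calls between genotypes depended on single libraries and settings, while the stratification counts stayed within 1.5 times of their values in every alternative, from 9082 to 12648 genes in the wild type and from 7217 to 11170 in mutant-labelled seeds. The 7 genes called in dry seeds became 4 with a pseudocount of 0.1, 20 with quantile normalization, 30 with the 2 groups fitted alone, 102 and 84 without stratified libraries above and at or under 10% ribosomal RNA, and 3 to 18 when single libraries were left out. The 32 called in stratified seeds became 18 with that pseudocount, 72 without the filter, 116 with median centring, 313 with quantile normalization, 145 with the groups alone, 61 with ribosomal RNA left out, 5426 and 128 without the ribosomal RNA groups in that order, and 12 to 4505 when single libraries were left out, the highest without wild-type stratified library 3. The 4 called in the interaction became 0, 8 without the filter, 7 with quantile normalization, 4669 and 60, and 2 to 2342 by library left out. Other family genes called in the wild type (6) became 11 without the filter and 10 with median centring or quantile normalization. In dry seeds 1 was called under either ribosomal RNA split, in stratified seeds 4 and 1, and 0 to 6 by library left out, and in the interaction 4 and 1, and 0 to 3. Of the members other than BGLU30, 1 was called in stratified seeds with the groups alone, and 0 to 3 by library left out. These counts include BGLU23, whose test is not used because it passed the filter only through the group where it is high. BGLU19 and BGLU25 were both called without wild-type stratified library 3, which was singled out after its values were seen. Without the libraries at or under 10% the difference of BGLU19 in stratified seeds was -1.15 and the wild-type response of JAL30 -0.24, and quantile normalization gave OLEO1, an oil body protein gene, 0.13 in mutant-labelled seeds; the causes were not tested. Same-numbered libraries did not deviate together (r from -0.315 to 0.197). With 3 libraries a group this cannot exclude pairing, on which the labels are silent. With the replicate number as a block, 304 genes in stratified seeds and 8 in the interaction were called. In stratified seeds 1 member other than BGLU30 was called with this block, again with BGLU23 included. Leaving out libraries above 10% leaves 1 stratified mutant-labelled library, assumed to vary like the others. The interaction was not run with the groups alone, since it uses all of them.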
